A study of Mus musculus with 16 samples.

Results

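Ccl22 and 9 protein-coding genes around it on mouse chromosome 8 were followed here: Rspry1, Arl2bp and Pllp below Ccl22 in the coordinates, and Cx3cl1, Ccl17, Ciapin1, Coq9, Polr2c and Dok4 above it. Ccl22 was chosen because its counts rose with doxycycline in these same libraries, so its own levels are a description and carry no test. The other members were chosen by position. They are 10 of the 23420 genes of the count files, and 9 of the 10 passed the filter on low counts.

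RNA-seq was done on J1 embryonic stem (ES) cells of strain 129S4/SvJae at passage 36, harvested on day 3 after feeder-free culture in serum with 2i and LIF. All 8 libraries carried the transgene Tn(dCas9-VPR/RLTR10B2-gRNA-DsRed): a Cas9 that cannot cut, fused to activation domains, with a guide against RLTR10B2, a family of retroviral long terminal repeats. The 4 groups of 2 libraries were Dox- (control), Dox+ at 1 µg/ml (Dox), Dox- with A-MYB (A-MYB), and Dox+ with A-MYB (Dox + A-MYB). A-MYB is a transcription factor of pachytene spermatocytes encoded by Mybl1. Doxycycline and A-MYB expression were both induced on days 1 and 2. The activator construct was present in every group, the controls included, and no library had doxycycline without it or another guide, so an action of the drug or of a guide-free activator cannot be told apart from that of the targeted activator. The promoter that drives each part, and the number of clones, are not given in the sources used here. Each library came from wells of a culture plate, and nothing says that replicates were grown from separate thaws, so their spread may be technical. H3K27ac, an acetylation of histone H3 found at active promoters and enhancers, was measured by native ChIP-seq in pachytene spermatocytes from C57BL/6J males of 8 to 12 weeks, with cells of 1 male per preparation. There were 2 peak lists from wild-type males and 2 from A-mybrepro9/repro9 males, which carry a mutant A-myb allele on both chromosomes.

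Gene counts per ES library ran from 26995317 to 33771487, and 14664 genes were tested. The Dox + A-MYB libraries held a read of 17602 and 17554 genes, and the other libraries of 16027 to 16512 genes. The part of this difference in the rises of single genes with few reads was not tested. Mybl1 stood at 8.38 and 6.91 CPM (counts scaled to a library size of 1e6) in the control, 10.99 and 10.2 in the Dox, 22.02 and 17.8 in the A-MYB, and 19.9 and 16.6 CPM in the Dox + A-MYB libraries. It was above every control and Dox library in all 4 libraries labelled A-MYB. The summed level of 10 ES cell markers was 7423 to 8181 CPM in the control, Dox and A-MYB libraries and 4973 to 5378 CPM in the Dox + A-MYB libraries. Of these markers, 8 fell and 1 rose with Dox in A-MYB cells, against 30.4% and 28.5% of all genes, with a median log2 change of -0.50, so every Dox + A-MYB value below comes from libraries with less ES marker RNA. The part of that shift in the changes of the chromosome 8 genes was not tested. In bulk RNA, fewer cells with a transcript and less transcript per cell cannot be told apart.

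CCL22 and CCL17 are CC chemokines, small secreted proteins that draw T cells, and both act through the receptor CCR4. They are best known as products of dendritic cells and macrophages, where NF-kB and STAT6 signalling drives them. CX3CL1, or fractalkine, is a membrane-anchored chemokine that binds CX3CR1. The 3 chemokine genes lie next to each other, among genes with unrelated tasks. Of 21 listed CC and CX3C ligand genes, 11 had no read in any library, while Cx3cl1, Ccl25 (5.75 and 5.36 CPM) and Ccl27a (1.38 and 1.83 CPM) were read in the untreated control libraries.

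Ccl22 (chromosome 8, 94745684 to 94751388, plus strand, mm10) was close to silent without doxycycline. It had 0 and 1 reads in the control libraries and 0 and 0 in the A-MYB libraries. With doxycycline alone it had 20 and 16 reads, or 0.606 and 0.550 CPM (0.578 ± 0.0395 CPM, SD, n = 2). With doxycycline and A-MYB it had 196 and 217 reads, or 5.72 and 6.44 CPM (6.08 ± 0.504 CPM, SD, n = 2). The order of the groups was thus Dox + A-MYB, then Dox, then control and A-MYB, which did not differ beyond a single read, and neither doxycycline group overlapped with another group.

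Over the group, the 36 Dox reads against 1 control read gave a ratio of 31.7 with an exact 95% counting interval of 5.33 to 1285 (Clopper-Pearson, counting error only). The Dox + A-MYB level was at least 116-fold higher than that of the A-MYB cells, where a count of 0 allows up to 3 reads over the group, or 0.0523 CPM. The fitted ratio of Dox + A-MYB to Dox cells was 10.4. These ratios describe the libraries on which the gene was chosen. The low absolute level bounds their precision: even the highest library held 217 Ccl22 reads.

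Ccl17 (chromosome 8, 94809380 to 94812038), the close relative of Ccl22 that binds the same receptor, stayed at the detection limit. It had 1 read in Dox + A-MYB replicate 1 and none in the other 7 libraries. It did not pass the filter and was not tested, and a change at such levels was not detectable at this depth.

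Cx3cl1 (chromosome 8, 94772180 to 94782427), which lies between Ccl22 and Ccl17, was read in every library. Its level was 4.95 and 5.01 CPM in the control, 6.21 and 6.80 CPM in the Dox, 3.51 and 4.94 CPM in the A-MYB, and 4.53 and 3.92 CPM in the Dox + A-MYB libraries. The Dox libraries were the highest, and the A-MYB and Dox + A-MYB libraries overlapped. The log2 change with Dox was 0.38 ± 0.20 (SE) without A-MYB, adjusted p = 0.148 (edgeR's quasi-likelihood test, Benjamini-Hochberg over all genes), and 0.00 ± 0.21 with A-MYB, adjusted p = 0.985. Neither passed. Between Dox + A-MYB and Dox cells it fell by 0.62 ± 0.20, adjusted p = 0.0101. That call was lost with scaling by total counts (adjusted p = 0.0675) and on leaving out Dox replicate 2 (0.0675) or Dox + A-MYB replicate 2 (0.0674). A part of Cx3cl1 overlaps the annotated noncoding gene Gm51543 over 1327 bases, and the reads of such genes cannot be told apart since no source used here gives the strand setting of the counting.

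**Figure D1:**
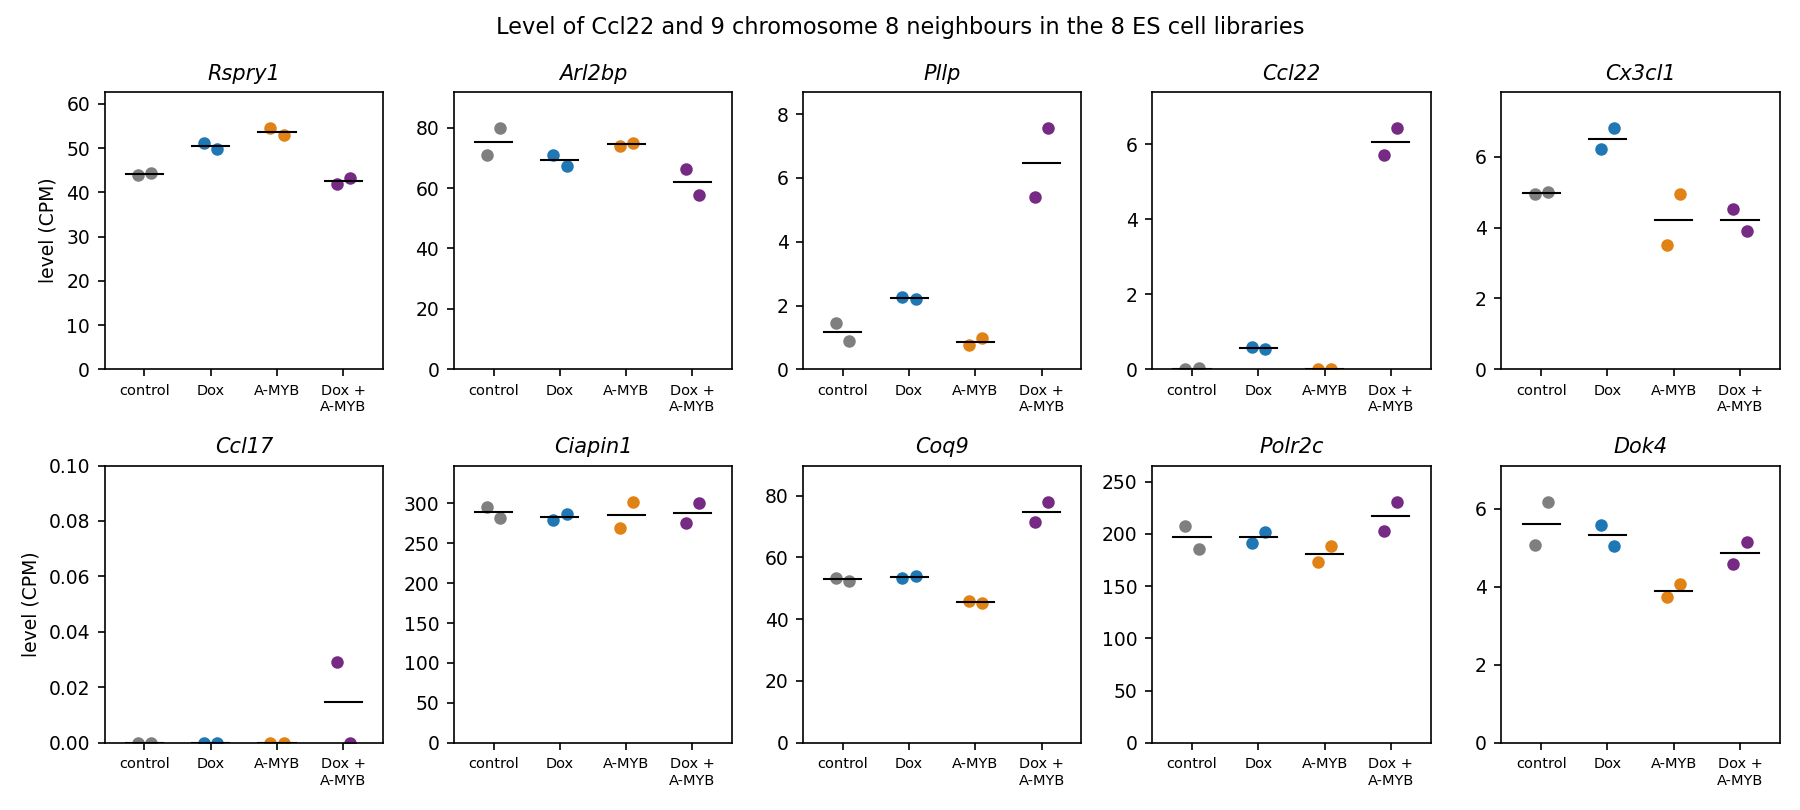
Level in CPM (vertical axis from 0, a separate scale for each gene) of the 10 members, in chromosome order, for each of the 4 ES cell groups (horizontal axis). Points are libraries and the line is their mean. Ccl22 and Pllp are highest in the Dox + A-MYB libraries, at 5.72 and 6.44 CPM and at 5.402 and 7.56 CPM, and Ccl17 has a read in 1 library only.

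The nearest member below Ccl22 is Pllp (chromosome 8, 94674895 to 94696242, minus strand), which codes for plasmolipin, a membrane protein of the MARVEL family known from myelin and epithelia. It was the listed neighbour with the largest log2 change with Dox in both settings. Pllp stood at 1.45 and 0.893 CPM in the control libraries (42 and 23 reads), 2.27 and 2.199 CPM in the Dox libraries (75 and 64 reads), 0.767 and 0.968 CPM in the A-MYB libraries (21 and 29 reads), and 5.402 and 7.56 CPM in the Dox + A-MYB libraries (185 and 255 reads). Both doxycycline groups lay above their counterparts without overlap, and control and A-MYB libraries overlapped.

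Pllp rose with Dox by 0.92 ± 0.31 (log2, SE) without A-MYB, 1.89-fold, adjusted p = 0.0274. With A-MYB it rose by 2.89 ± 0.30, 7.42-fold, adjusted p = 1.26e-08. The second change exceeded the first by 1.97 ± 0.45, adjusted p = 0.00097 (interaction term). A-MYB without Dox gave -0.44 ± 0.36, adjusted p = 0.369. The call without A-MYB was lost without control replicate 2 (log2 0.60, adjusted p = 0.246), without Dox replicate 1 (0.102), without Dox replicate 2 (0.0757) and with DESeq2's Wald test (0.0574). The call with A-MYB and the interaction held in every alternative run.

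The RefSeq sequence (build GRCm38.p6) of the 250 bases before the annotated start is shown for Ccl22, for Pllp, whose level also rose with Dox, and for Cx3cl1, whose level did not pass that test. Capitals mark matches to the MYB core AACNG on either strand.
Ccl22, chr8:94745434-94745683, plus strand: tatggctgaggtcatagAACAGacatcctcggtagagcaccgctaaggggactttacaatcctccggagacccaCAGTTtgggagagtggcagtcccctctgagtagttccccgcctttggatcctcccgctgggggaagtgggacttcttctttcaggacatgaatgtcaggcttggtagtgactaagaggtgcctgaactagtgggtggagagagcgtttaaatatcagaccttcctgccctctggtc
Pllp, chr8:94696243-94696492, minus strand: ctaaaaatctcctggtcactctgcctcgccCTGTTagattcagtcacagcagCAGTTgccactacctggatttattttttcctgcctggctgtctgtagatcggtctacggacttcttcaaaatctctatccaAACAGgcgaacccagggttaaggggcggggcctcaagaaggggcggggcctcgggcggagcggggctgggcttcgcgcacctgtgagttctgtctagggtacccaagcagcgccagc
Cx3cl1, chr8:94771930-94772179, plus strand: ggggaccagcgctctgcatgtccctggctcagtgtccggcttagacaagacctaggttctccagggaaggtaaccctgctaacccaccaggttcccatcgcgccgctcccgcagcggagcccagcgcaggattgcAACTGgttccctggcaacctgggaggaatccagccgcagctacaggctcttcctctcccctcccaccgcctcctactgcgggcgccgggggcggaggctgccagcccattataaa
The window held 2 matches before Ccl22, 3 before Pllp and 1 before Cx3cl1. Of 32851 promoter windows of this length in the table, 74.2% held at least 1, so a match is common. The TATA box letters TATAAA, searched on both strands, were in the windows of Cx3cl1 and Polr2c among 9 members with an entry, and in 12.4% of all windows. Matches of the motifs were counted separately, whether or not they overlap, and a match is not shown to be a site. The table has no entry for Dok4.

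On the other side, Coq9 (chromosome 8, 94838413 to 94854895) and Ciapin1 (chromosome 8, 94819818 to 94838830) start close together on opposite strands, with 418 bases of annotated overlap. COQ9 is a lipid-binding protein needed for coenzyme Q synthesis in mitochondria. Coq9 stood at 53.5 and 52.5 CPM in the control, 53.2 and 53.8 CPM in the Dox, 45.9 and 45.3 CPM in the A-MYB, and 71.5 and 78.1 CPM in the Dox + A-MYB libraries. The Dox + A-MYB libraries were above all others, the A-MYB libraries below all others, and control and Dox libraries overlapped. The log2 change with Dox was 0.01 ± 0.08 without A-MYB, adjusted p = 0.911, and 0.71 ± 0.08 with A-MYB, 1.64-fold, adjusted p = 1.48e-08. The changes differed by 0.70 ± 0.11, adjusted p = 1.28e-05. With A-MYB alone Coq9 fell by 0.22 ± 0.08, adjusted p = 0.0316, a call lost with total counts (0.0571) and without control replicate 1 (0.092), control replicate 2 (0.055), Dox replicate 1 (0.0522), A-MYB replicate 1 (0.0606) or A-MYB replicate 2 (0.0736).

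Ciapin1, which codes for anamorsin, an electron carrier of cytosolic iron-sulfur cluster assembly, was level. It stood between 269 and 302 CPM in all 8 libraries, and every pair of groups overlapped. Its log2 change with Dox was -0.03 ± 0.06 without A-MYB, adjusted p = 0.741, and 0.01 ± 0.06 with A-MYB, adjusted p = 0.899. Reads in the stretch shared with Coq9 cannot be assigned from the files. With scaling by total counts, which moves the median gene by 0.21 in that contrast, Ciapin1 read 0.22 higher and passed (adjusted p = 0.00316).

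Polr2c (chromosome 8, 94857450 to 94864242) codes for RPB3, a subunit of RNA polymerase II. It stood at 208 and 185 CPM in the control, 192 and 202 CPM in the Dox, 173 and 189 CPM in the A-MYB, and 203 and 231 CPM in the Dox + A-MYB libraries. The Dox + A-MYB libraries lay above those of the A-MYB and Dox groups and overlapped with the control. It rose with Dox in A-MYB cells by 0.26 ± 0.07, adjusted p = 0.00266, against 0.00 ± 0.07 without A-MYB, adjusted p = 0.992. The call was lost without A-MYB replicate 1 (0.0544) or Dox + A-MYB replicate 2 (0.0611). The changes differed by 0.26 ± 0.10, adjusted p = 0.0372, which was lost without control replicate 1 (0.185), Dox replicate 1 (0.166), A-MYB replicate 1 (0.121) or Dox + A-MYB replicate 2 (0.12).

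Dok4 (chromosome 8, 94863828 to 94876312) codes for an adaptor protein downstream of receptor tyrosine kinases and overlaps Polr2c in the annotation over 415 bases. It stood at 5.05 and 6.18 CPM in the control, 5.57 and 5.05 CPM in the Dox, 3.72 and 4.07 CPM in the A-MYB, and 4.58 and 5.13 CPM in the Dox + A-MYB libraries, lowest in the A-MYB group. The log2 change with Dox was -0.08 ± 0.19 without A-MYB, adjusted p = 0.803, and 0.32 ± 0.20 with A-MYB, adjusted p = 0.179. The latter passed with total counts (0.0267). Dok4 fell by 0.52 ± 0.20 with A-MYB alone, adjusted p = 0.0461. That call was lost with total counts (0.0586), with no filter (0.0531), with DESeq2 (0.07), and without control replicate 2 (0.236), Dox replicate 1 (0.0594), A-MYB replicate 1 (0.166) or A-MYB replicate 2 (0.0688).

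Below Pllp, Arl2bp (chromosome 8, 94666600 to 94674457) codes for a partner of the small GTPases ARL2 and ARL3. It stood at 70.9 and 79.8 CPM in the control, 71.0 and 67.4 CPM in the Dox, 74.1 and 75.0 CPM in the A-MYB, and 66.5 and 57.8 CPM in the Dox + A-MYB libraries. The Dox + A-MYB libraries were the lowest, but not by total counts alone, where they stood at 74.4 and 64.3 CPM against 66.9 and 76.1 CPM in the control. The log2 change with Dox was -0.12 ± 0.08 without A-MYB, adjusted p = 0.261, and with A-MYB Arl2bp fell by 0.26 ± 0.08, adjusted p = 0.00647. Scaling by total counts made this -0.052 (0.594), and the call was also lost without Dox + A-MYB replicate 2 (0.081).

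Rspry1 (chromosome 8, 94601941 to 94660276), the farthest member below Ccl22, codes for a RING and SPRY domain protein. It stood at 44.0 and 44.2 CPM in the control, 51.1 and 49.8 CPM in the Dox, 54.5 and 52.9 CPM in the A-MYB, and 41.8 and 43.2 CPM in the Dox + A-MYB libraries. No 2 groups overlapped. The Dox and the A-MYB libraries were above the control, and the Dox + A-MYB libraries were the lowest. That last place depends on the scaling: by total counts alone the Dox + A-MYB libraries stood at 46.8 and 48.1 CPM, above the control at 41.5 and 42.2 CPM. The log2 change with Dox was 0.19 ± 0.08 without A-MYB, adjusted p = 0.0591, and passed only with total counts (0.237, adjusted p = 0.021). With A-MYB Rspry1 fell by 0.34 ± 0.08, adjusted p = 0.000575, which read -0.128 with total counts (0.159).

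The Dox effects on Rspry1 differed by -0.53 ± 0.11, adjusted p = 0.000394, and this held in every alternative run. With A-MYB alone it rose by 0.28 ± 0.08, adjusted p = 0.00591. That call was lost without control replicate 1 (0.0706), control replicate 2 (0.0542) or A-MYB replicate 1 (0.0874). Between Dox + A-MYB and Dox cells it fell by 0.25 ± 0.08, adjusted p = 0.00858, which was lost without Dox replicate 1 (0.065) and with total counts (0.557).

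Counted together with the main scaling, the 8 tested neighbours did not move as a block. With Dox and no A-MYB, 1 of 8 rose (Pllp) and 0 fell, against 17.9% and 14.3% of all tested genes. Their median log2 change was 0.01, and that of all genes was 0.03. At an unadjusted p under 0.05 the edgeR count was 2 higher and 0 lower, and DESeq2's Wald test called 0. The edgeR count was also 0 without control replicate 2, Dox replicate 1 or Dox replicate 2. With Dox in A-MYB cells, 3 rose (Pllp, Coq9, Polr2c) and 2 fell (Arl2bp, Rspry1), against 28.5% and 30.4% of all genes, with a median of 0.14 against 0.01. Without Dox + A-MYB replicate 2 the count called went from 5 to 3. The directions in this contrast depend on the scaling. With total counts the falls of Arl2bp (adjusted p = 0.594) and Rspry1 (0.159) were lost. Rises of Ciapin1 (0.00316) and Dok4 (0.0267) were gained, so the calls left were all rises. That scaling called 6202 of all genes higher and 2607 lower.

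With A-MYB and no Dox, 1 rose (Rspry1) and 2 fell (Coq9, Dok4), against 19.5% and 15.2% of all genes. That total of 3 went to 0 without control replicate 2 or A-MYB replicate 1, and to 1 without control replicate 1, Dox replicate 1 or A-MYB replicate 2. With A-MYB in Dox cells, 2 rose (Pllp, Coq9) and 2 fell (Cx3cl1, Rspry1), against 26.8% and 28.4% of all genes. In the interaction, 3 were higher (Pllp, Coq9, Polr2c) and 1 lower (Rspry1), against 16.4% and 24.5%. Both Dox contrasts share no library with each other, but each shares a group with an A-MYB contrast.

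The window was then widened. The files held 24 genes whose lower coordinate lies within 500 kb of that of Ccl22, and 20 were tested. All distances here are between lower coordinates, which for minus-strand genes such as Pllp and Ccdc102a is the end and not the start. With Dox alone 2 rose and 4 fell, against 17.9% and 14.3% of all genes, and with Dox in A-MYB cells 9 rose and 4 fell, with a median log2 change of 0.23, against 28.5% and 30.4%. The first count, 6 in all, went to 3 without control replicate 2 or Dox replicate 1, and the second, 13 in all, went to 8 without Dox + A-MYB replicate 2. DESeq2's Wald test called 1 higher and 3 lower with Dox alone, where the fall of Ccdc135 was lost. With Dox in A-MYB cells it called 8 higher and 4 lower. Among the 12 tested genes that are no members, 1 rose and 4 fell with Dox alone, and 6 rose and 2 fell with Dox in A-MYB cells. Nlrc5 and Gpr97, among those 6, passed the filter only through the Dox + A-MYB libraries. Nlrc5 had 2 to 12 reads per library outside that group and 42 and 108 within it, Gpr97 3 to 10 and 34 and 22. Their calls thus support nothing, and the median of 0.23 is a description. The Gpr97 call was also lost with no filter (0.0922), DESeq2 (0.144) or any 1 library left out. By distance, genes that rose and genes that did not lay intermingled: Cx3cl1, at 26.5 kb from Ccl22, did not pass, Pllp, at -70.8 kb, rose, and its neighbour Arl2bp, at -79.1 kb, did not. Gpr56 (Adgrg1, an adhesion receptor), at 229 kb, rose in both settings. Gpr56 changed by 0.50 ± 0.09 without A-MYB (adjusted p = 0.000106) and by 1.38 ± 0.09 with it (adjusted p = 9.89e-13). Ccdc102a at 157 kb fell in both settings, by 0.67 ± 0.12 (adjusted p = 0.000113) and by 0.79 ± 0.13 (adjusted p = 7.59e-06).

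**Figure D2:**
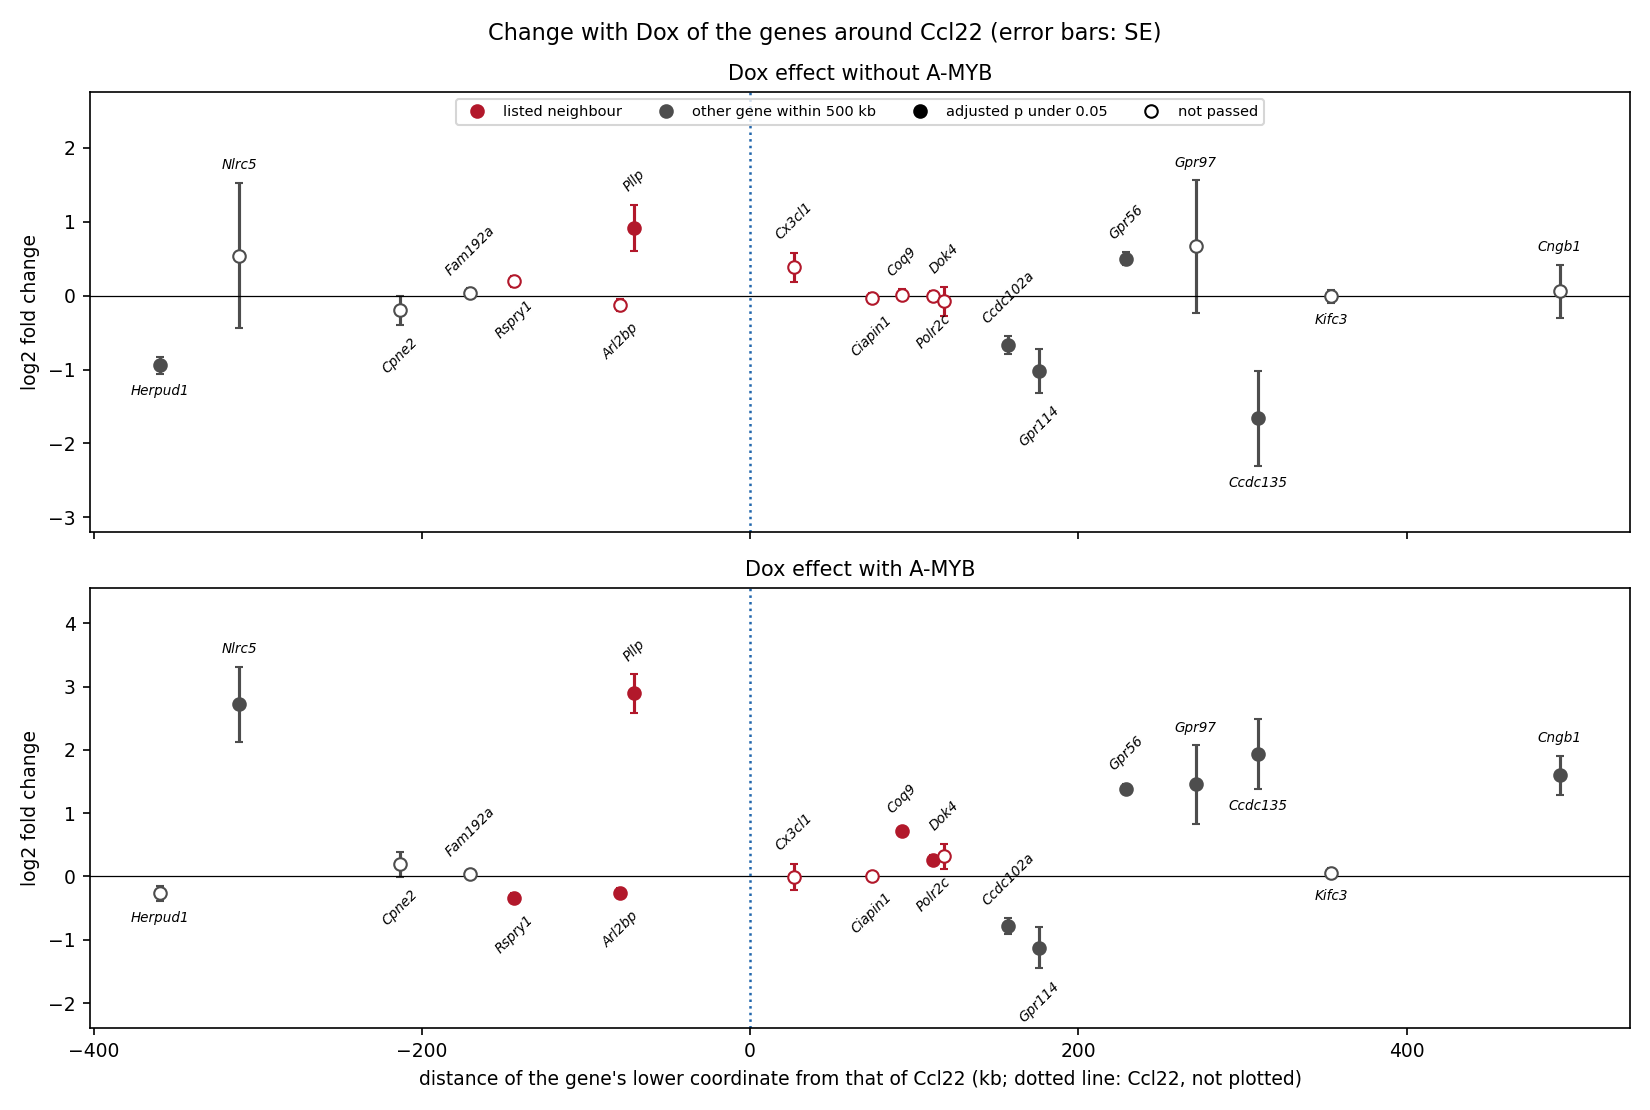
Log2 fold change with Dox (vertical axis, bars are SE) of the reported genes within 500 kb, by distance of their lower coordinate from that of Ccl22 (horizontal axis, kb), without A-MYB (top) and with A-MYB (bottom). Filled points passed at an adjusted p under 0.05. Pllp is the highest listed neighbour in both panels, at 0.92 and 2.89, and genes that rose and fell lie side by side.

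Other chemokine genes were looked at for the same pattern. Besides Ccl22, 4 CC or CX3C ligand genes were tested. In the Dox contrast without A-MYB 0 of 4 passed in edgeR and in DESeq2 (median 0.40), with 1 higher and 1 lower at an unadjusted p under 0.05, and with Dox in A-MYB cells 1 of 4 was called higher, Ccl9, against 28.5% of all genes (median 0.43). Ccl9, a macrophage chemokine, had no control read, 5 and 2 reads in the Dox, 0 and 13 in the A-MYB, and 53 and 56 in the libraries with both treatments. Its Dox + A-MYB libraries were well above the rest. The gene passed the filter only through these libraries, so its levels are a description and its call supports nothing. DESeq2's Wald test called 0 of the 4 in that contrast. Of 3 tested CXC ligands, Cxcl16, a membrane-bound ligand of CXCR6, rose with Dox in A-MYB cells from 1.68 and 1.70 CPM to 6.37 and 7.56 CPM, by 2.04 ± 0.29 (adjusted p = 1.69e-06). It was the only call among the 3, whose median was 1.76. That median is the value of Cxcl10, with 0 to 6 reads per library outside the Dox + A-MYB group and 15 and 22 within it. Cxcl10 passed the filter through that group, as Ccl9 did, so the median is a description. Without A-MYB 0 of 3 passed (median 0.66), also in DESeq2 and at an unadjusted p under 0.05.

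Ccr4, the receptor of CCL22 and CCL17, was higher in the same libraries. It stood at 1.14 and 0.932 CPM in the control, 1.12 and 0.962 CPM in the Dox, 1.39 and 3.00 CPM in the A-MYB, and 7.21 and 7.47 CPM in the Dox + A-MYB libraries. The Dox + A-MYB libraries were above all others, and control and Dox libraries overlapped. Its log2 change with Dox was 0.00 ± 0.37 without A-MYB (adjusted p = 0.994) and 1.73 ± 0.28 with A-MYB (adjusted p = 8.35e-06), a difference of 1.72 ± 0.46 (adjusted p = 0.00416). Over the 4 tested receptor genes, 0 passed with Dox alone (median 0.03), also in DESeq2 and at an unadjusted p under 0.05, and with Dox in A-MYB cells 2 rose (Ccr4 and Ccrl1) and 1 fell (Cxcr7), against 28.5% and 30.4% of all genes, with a median of 0.40. Ccrl1 and Cxcr7 are the older names of Ackr4 and Ackr3, scavenging receptors that clear chemokines. Ccrl1 rose by 1.03 ± 0.29 (adjusted p = 0.00357) and Cxcr7 fell by 0.89 ± 0.21 (adjusted p = 0.00093).

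**Figure D3:**
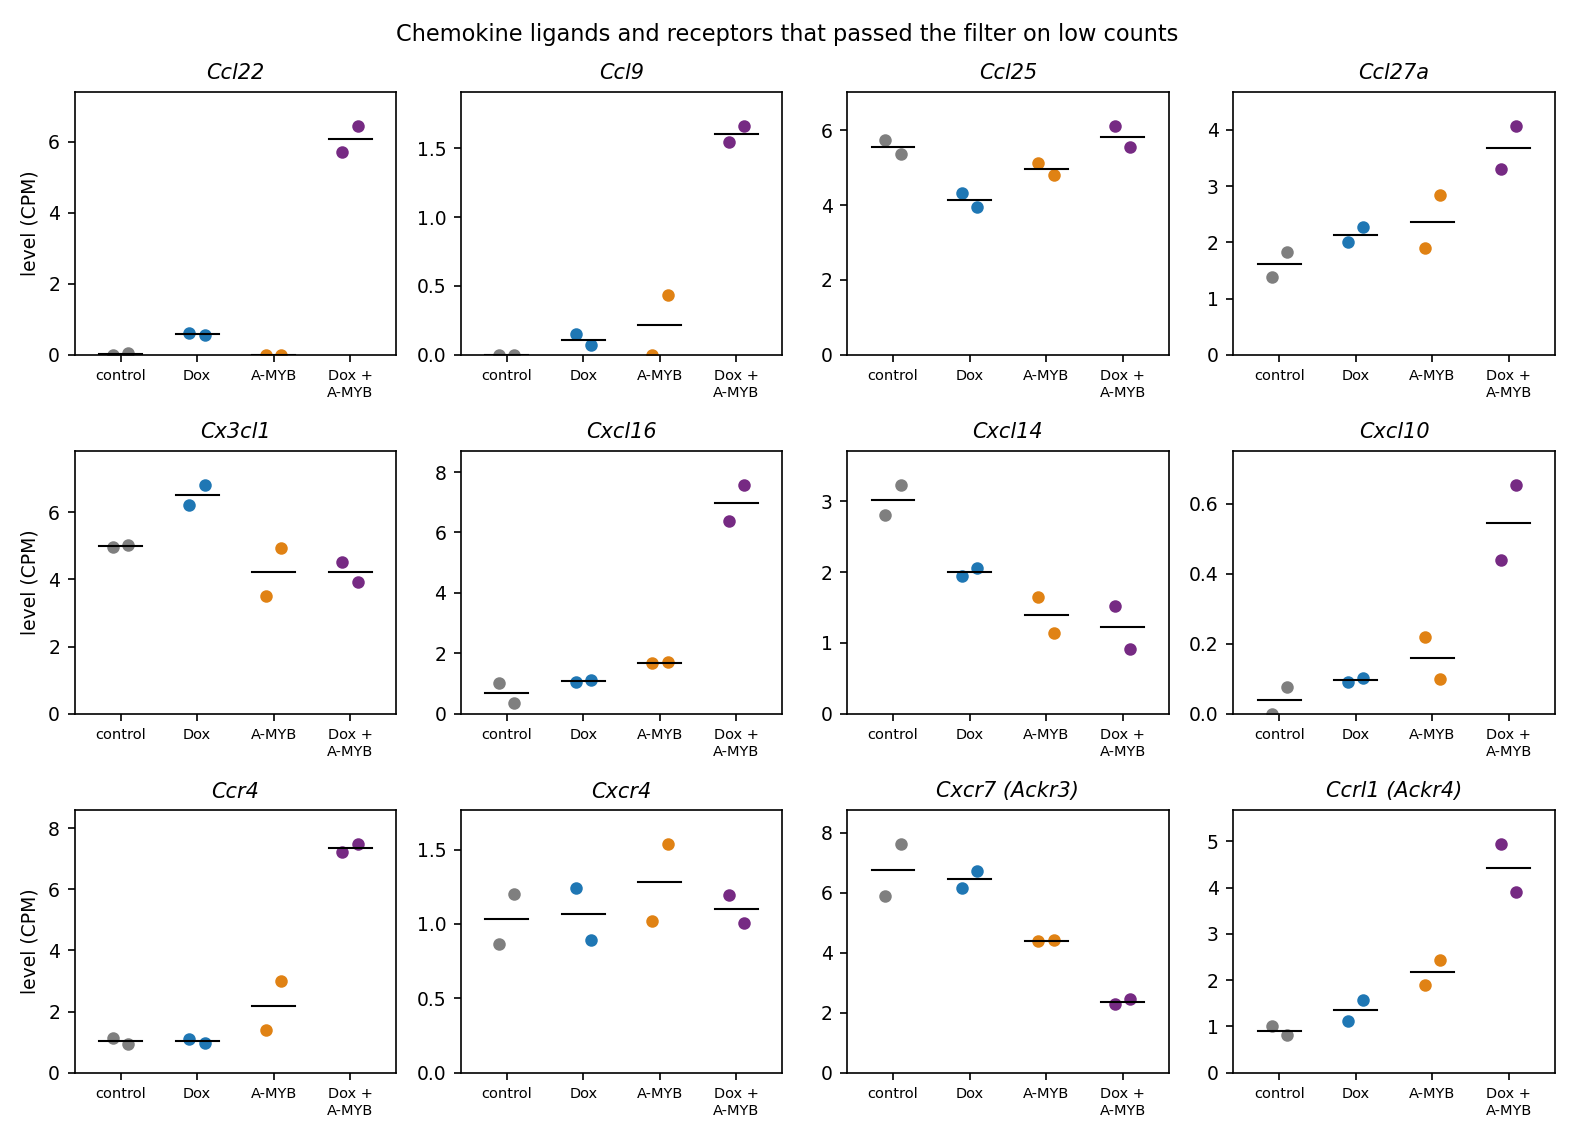
Level in CPM (vertical axis from 0, a separate scale for each gene) of the 12 chemokine ligand and receptor genes that passed the filter, in the 4 ES cell groups (horizontal axis). Points are libraries and the line is their mean. Ccr4 is at 7.21 and 7.47 CPM in the Dox + A-MYB libraries and at most 3.00 CPM elsewhere, while Cxcr7 is lowest there.

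The regulators known to drive Ccl22 in immune cells were described from a list of 23 NF-kB and STAT6 pathway and target genes, of which 16 were tested. With Dox alone 0 rose and 3 fell (median -0.07), against 17.9% and 14.3% of all genes, and with Dox in A-MYB cells 5 rose and 2 fell (median -0.04), against 28.5% and 30.4%. The share that rose in A-MYB cells was near that of all genes. Traf1, among those that rose, would not have passed the filter without the Dox + A-MYB libraries, so its call supports nothing. It had 1 to 12 reads per library outside that group and 12 and 22 within it. Tnfaip3, an NF-kB target that restrains the pathway, rose by 1.12 (adjusted p = 1.3e-05), and Bcl3, a nuclear member of the inhibitor family, fell by 0.63 (adjusted p = 2.7e-07). Markers of dendritic cells and macrophages, the usual sources of CCL22, summed to 108 to 111 CPM in the control, 93.0 to 94.7 CPM in the Dox, 102 to 103 CPM in the A-MYB, and 118 to 121 CPM in the Dox + A-MYB libraries. Laptm5, a lysosomal membrane protein, made up most of each sum, at 80.8 and 83.1 CPM in the control, 69.3 and 69.3 CPM in the Dox, 79.6 and 78.3 CPM in the A-MYB, and 82.2 and 78.9 CPM in the Dox + A-MYB libraries. Of these 20 genes 4 had no read in any library. Among the 10 tested, 1 rose and 2 fell with Dox alone (median -0.15), and 5 rose and 1 fell with Dox in A-MYB cells (median 0.68), against the same shares of all genes. Flt3 and H2-Aa, among those that rose, passed the filter only through the Dox + A-MYB libraries, as Ccl9 did. Flt3 had 0 to 4 reads per library outside that group and 29 and 29 within it. H2-Aa had 3 to 10 reads outside it and 12 and 21 within it. Their calls thus support nothing, and the median of 0.68 is a description. Itgam, which marks myeloid cells, stood at 0.312 and 0.427 CPM in the control and 7.33 and 7.77 CPM in the Dox + A-MYB libraries, and Irf8 at 1.28 and 1.09 CPM and at 4.29 and 4.004 CPM. H2-Ab1, an MHC class II chain of antigen-presenting cells, went the other way, from 10.3 and 7.65 CPM in the control to 2.66 and 2.05 CPM in the Dox + A-MYB libraries, and fell with Dox in A-MYB cells by 0.84 ± 0.23 (adjusted p = 0.00356). Cd74, Cd68 and Laptm5 did not pass in that contrast. The part of these markers in the Ccl22 level was not tested. Of 8 fibroblast markers 4 were tested: 0 rose and 1 fell with Dox alone (median -0.89), and 2 rose and 1 fell with Dox in A-MYB cells (median 0.48), beside the same shares. Col3a1, among those that rose, had 0 to 3 reads per library outside the Dox + A-MYB group and 36 and 10 within it. It passed the filter only through that group, so its call supports nothing and the median is a description.

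The 5 genes whose log2 CPM followed that of Ccl22 most closely over the 8 libraries were Pacs2 (Pearson r = 0.9985), Cldn6 (0.9964), Dmkn (0.9959), Tmbim1 (0.9954) and Bace1 (0.9941). All were higher in the Dox than in the control libraries and highest in the Dox + A-MYB libraries, which is what the measure selects. Tmbim1, for example, stood at 18.2 and 19.4 CPM in the control, 49.5 and 45.7 CPM in the Dox, 16.7 and 16.0 CPM in the A-MYB, and 102.6 and 101.0 CPM in the Dox + A-MYB libraries. These points share their libraries and fall into groups, so r only describes the likeness. None of the 5 is within 500 kb of Ccl22.

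Each neighbour can also be set beside genes of its own pathway. All of these counts stand against 17.9% of all genes higher and 14.3% lower with Dox alone, and 28.5% higher and 30.4% lower with Dox in A-MYB cells. Of 13 coenzyme Q synthesis genes, Coq9 included, 1 rose and 0 fell with Dox alone (median 0.04), and 9 rose and 2 fell with Dox in A-MYB cells (median 0.52). Coq6, a ring hydroxylase, rose by 0.91 ± 0.08 (adjusted p = 3.14e-10) and Adck3, now named Coq8a, by 1.16 ± 0.17 (adjusted p = 1.93e-06). Of 9 cytosolic iron-sulfur assembly genes, 2 rose and 0 fell with Dox alone (median 0.00), and 5 rose and 0 fell with Dox in A-MYB cells (median 0.29), where Ciapin1 read 0.01. Of 12 RNA polymerase II subunit genes, 1 rose and 2 fell with Dox alone (median -0.11). With Dox in A-MYB cells 3 rose and 4 fell (median -0.17), Polr2c among those that rose, which is near the shares of all genes.

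The same shares of all genes apply to the other families. Of 5 tested DOK adaptor genes, 0 rose and 1 fell with Dox alone (median -0.08), and 2 rose and 0 fell with Dox in A-MYB cells (median 0.74). Of 9 ARL2 and ARL3 pathway genes, 1 rose and 1 fell with Dox alone (median -0.06), and 1 rose and 4 fell with Dox in A-MYB cells (median -0.10), Arl2bp among the latter. Of 13 tested MARVEL domain genes, 3 rose and 1 fell with Dox alone (median -0.05), and 2 rose and 8 fell with Dox in A-MYB cells (median -0.45). Pllp and Marveld3, a tight junction protein, were those that rose, Marveld3 by 1.30 (adjusted p = 7.4e-05).

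In spermatocytes, the H3K27ac lists held 29042 and 24130 peaks in the wild type and 22397 and 21269 in the A-myb mutant. A gene was said to have a promoter peak where a peak lay within 2000 bp of its start. This was so for 2.97% and 1.71% of 17699 genes in the wild-type lists and 1.16% and 1.14% in the mutant lists. Peaks were few at gene starts in all 4 lists: 1.35%, 0.515%, 0.211% and 0.206% of gene starts lay inside a peak, while the peaks covered 1.7%, 1.49%, 1.28% and 1.17% of the annotated sequence. Of 12 pachytene spermatocyte marker genes, 1 had a promoter peak in wild-type list 1 (Piwil1) and 0 had one in any other list. Neither is what the labels of an active promoter mark in spermatocytes lead one to look for. Of the matched markers of testis somatic cells, dendritic cells and macrophages, or ES cells, 0 had a promoter peak in any list. A missing peak is thus not read here as missing acetylation.

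Dok4 has no strand in the table and so no start to search. Of the other 9 members, Rspry1 alone had a promoter peak. It was in both wild-type lists and in neither mutant list, a pattern seen at 0.396% of genes, against 0.0509% with a peak in both mutant lists and neither wild-type list and 0.622% with a peak in all 4. In wild-type list 1 the peak was chr8:94601884-94602704 with 46 tags, a score of 68.15 and a 3.95-fold enrichment, all as the authors' caller gave them. In wild-type list 2 it was chr8:94601735-94602809 with 47 tags, a score of 59.44 and a 4.15-fold enrichment. Both scores are near the lower limit of the lists, which is 50, and neither peak remained at a score of at least 100. The start of Fam192a (Psme3ip1), a divergent gene that overlaps Rspry1 by 22 bases, lies in the same region. LOC115486880, an annotated protein-coding gene at 94601616 to 94602891, spans both peaks and overlaps Rspry1 by 951 bases. The peak thus cannot be given to any of these genes.

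A second region inside Rspry1, chr8:94616347-94622104, was in all 4 lists, with enrichments of 3.15-fold and 3.41-fold in its 2 peaks of wild-type list 1, 4.10-fold and 4.06-fold in those of wild-type list 2, and 3.58-fold and 4.31-fold in the single peaks of the mutant lists. Of 39460 merged regions genome-wide, 27.5% were in all 4 lists, 10.1% in both wild-type lists alone and 4% in both mutant lists alone. Another region, chr8:94795898-94800232, lies between Cx3cl1 and Ccl17, its centre 52.4 kb above the start of Ccl22. It was in wild-type list 1 (3.22-fold) and mutant list 1 (3.06-fold) and in neither second list.

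No listed peak touched Ccl22, Pllp, Arl2bp, Cx3cl1, Ccl17, Ciapin1, Coq9, Polr2c or Dok4 in any of the 4 lists. The 10 peaks between Rspry1 and Dok4 had enrichments at percentiles 3.74 to 42.3 of their lists. Whether RLTR10B2 copies lie in or near these regions was not analysed here.

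**Figure D4:**
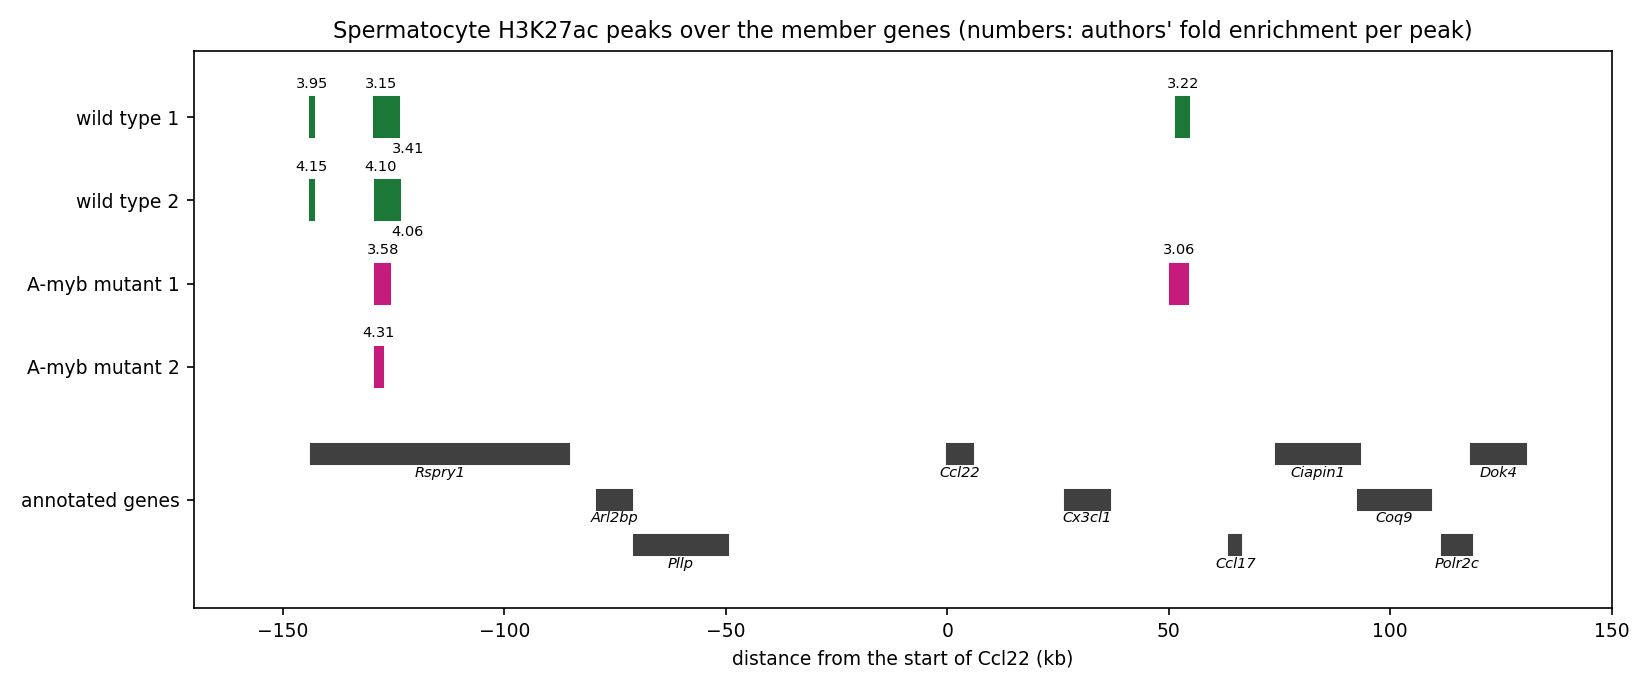
H3K27ac peaks of the 4 spermatocyte lists (rows, green for wild type and magenta for A-myb mutant) and the annotated extent of the 10 members (grey bars), by distance from the start of Ccl22 (horizontal axis, kb). Numbers are the authors' fold enrichment of each peak, from 3.06 to 4.31. The leftmost peak, at the start of Rspry1, is in the wild-type rows only, and no peak lies over Ccl22.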

How the data were processed

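The authors deposited raw read counts by gene symbol for 8 ES cell libraries, and an H3K27ac peak list for each of 4 spermatocyte libraries; the 4 input libraries were not analysed here. Per the submitters' processing notes, bcl2fastq 2.20.0, HISAT2 2.1.0, HTSeq, Bowtie2 2.3.3.1 and MACS 1.4.2 were used with mm10. Their roles and settings, the strand setting of the counting, and which library served as background of which peak call are not given in the sources used here. In the authors' peak lists each peak has tag counts, a score and an enrichment as a ratio (fold). The score is headed as a negative log10 p-value, but starts at 50, as MACS 1.4 does where it writes a negative log10 p multiplied by 10. It only ranks peaks here. Positions in the authors' lists, 1 of their other values, are in mm10.

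Lines for reads assigned to no gene, 17.2 to 19.5% of each file, were left out. Counts were scaled by TMM, filtered with filterByExpr and fitted in edgeR 4.0.16 (glmQLFit, robust, all 4 groups in 1 model with 4 residual degrees of freedom; R 4.3.3, limma 3.58.1). Contrasts were tested two-sided with glmQLFTest, with Benjamini-Hochberg adjustment over 14664 genes and a threshold of 0.05. CPM are counts scaled to a TMM-adjusted library of 1e6. The SE is the absolute log2 fold change over the square root of F. On data simulated for the Dox contrast without A-MYB, 179 of 200 genes changed 2-fold were recovered among 14333 tested, with 15 false calls. The biological coefficient of variation was 0.0631. Same-numbered replicates did not deviate together (r from -0.0269 to 0.0843), so no pairing was used.

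The members, the gene lists and the tests were chosen with earlier results of these data known. The named genes are the 10 members, the list members and neighbours that a result turns on, and the 5 genes with the highest Pearson r to Ccl22 (log2 CPM, prior count 2). Gpr56, Ccdc102a, Tnfaip3, Bcl3, Itgam, Irf8, H2-Ab1, Laptm5, Cd74, Cd68, Coq6, Adck3, Marveld3 and the chemokine genes given in full were picked after their values were seen. The same holds for Nlrc5, Gpr97, H2-Aa, Flt3, Col3a1 and Traf1. Distances, starts, overlaps and promoters come from the RefSeq tables for GRCm38.p6, the assembly behind mm10, with 9 of 10 members matched to a promoter. Alternatives were DESeq2 1.42.0 (its size factors and Wald test), total-count scaling, no filter, the contrast's groups alone, a replicate block, leaving out each library, other windows, a peak score of at least 100 and a stricter overlap. One gene near Ccl22 is counted but not reported by name here.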

Additional observations from a re-analysis of the deposited data

Results flagged for a closer look

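These genes were picked out because their change with Dox differed between cells with and without A-MYB by the interaction term. Among the listed neighbours the change with A-MYB minus that without was 1.97 for Pllp (adjusted p = 0.00097), 0.70 for Coq9 (1.28e-05), 0.26 for Polr2c (0.0372) and -0.53 for Rspry1 (0.000394), all on the log2 scale from edgeR's quasi-likelihood test. The Polr2c call was lost without control replicate 1 (adjusted p = 0.185), Dox replicate 1 (0.166), A-MYB replicate 1 (0.121) or Dox + A-MYB replicate 2 (0.12).

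Among the other genes within 500 kb it was 3.6 for Ccdc135 (adjusted p = 0.00143), 1.54 for Cngb1 (0.0122), 0.88 for Gpr56 (3.87e-06) and 0.68 for Herpud1 (0.00179). For Herpud1 this is a weaker fall: it fell by 0.94 with Dox alone (1.03e-06) and read -0.26 with A-MYB (0.0524). Ccdc135 read -1.66 with Dox alone, on 5 and 7 Dox reads, and 1.94 with A-MYB (0.00426). The call with A-MYB was lost without Dox + A-MYB replicate 2 (0.0985). The fall with Dox alone passed only at the threshold. It was lost with total counts (0.0544), no filter (0.0594), the replicate block (0.0521), DESeq2's Wald test (0.0756) and with any 1 library left out. The Cngb1 call was lost without Dox replicate 1 (0.0701) or Dox + A-MYB replicate 1 (0.0584). In the interaction 16.4% of all genes were higher and 24.5% lower. Ccl22, chosen for its response to Dox, was not tested.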

How the results depend on the processing

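For single genes, 101 pairs of gene and contrast gave 1389 values under the alternatives. Of these 1295 kept their side of the threshold, 76 lost the call, 18 gained it and 0 reversed. A reversal is a change of sign with a call in either run. Changes of sign without a call were counted among the 1295. The Ccl22 level in Dox + A-MYB cells was 6.08 CPM, 6.785 CPM with total counts, and 5.724 to 6.436 CPM with 1 library left out. Listed neighbours called with Dox alone went from 1 to 2 with total counts, 0 with DESeq2's Wald test and 0 to 1 with a library left out. With Dox in A-MYB cells they went from 5 to between 3 and 5 with a library left out. With total counts in that contrast the falls of Arl2bp and Rspry1 were lost and rises of Ciapin1 and Dok4 were gained. With A-MYB alone the listed neighbours called went from 3 to 1 with total counts and between 0 and 4 with a library left out. The causes were not tested.

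Genes called near Ccl22 follow the window by construction. With Dox alone they were 6 within 500 kb and 11 within 1000 kb. With Dox in A-MYB cells they were 13, Nlrc5 and Gpr97 included, against 8 within 250 kb and 23 within 1000 kb. With A-MYB alone they were 7 and, within 1000 kb, 12. With A-MYB in Dox cells they were 11, against 7 and 23, and in the interaction 9, against 5 and 16. With a library left out the 500 kb counts ran from 3 to 5, 8 to 13 and 2 to 8 in the contrasts of Dox alone, Dox in A-MYB cells and A-MYB alone. All genes called with Dox alone, 4716, ran from 2671 (without control replicate 1) to 5221, and with A-MYB alone, 5086, from 3200 (without A-MYB replicate 1) to 5676.

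With total counts the median gene moved by 0.21 with Dox in A-MYB cells, by 0.19 with A-MYB in Dox cells and by 0.166 in the interaction. The split of higher against lower calls went from 4174 and 4463 to 6202 and 2607, from 3935 and 4161 to 5796 and 2369, and from 2410 and 3587 to 3743 and 2293. With the replicate block, Pllp with Dox alone read 0.912 (adjusted p = 0.03), and 4958 genes were called. With 1000 or 5000 bp the Rspry1 promoter peak stayed. At a score of at least 100 the members with a promoter peak went from 1 to 0 in each wild-type list and in the pattern of both wild-type lists and neither mutant list. All genes with a promoter peak ran from 163 to 1035 around 525 in wild-type list 1. With an overlap over 0.5 of the shorter peak, wild-type-only peaks over the members went from 1 to 2.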
